A study of Homo sapiens with 4 samples.

Results

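The genes described here are the nuclear-encoded genes of the mitochondrial respiratory chain, taken as every gene in the lists of crosslink sites whose symbol begins with NDUF, UQCR, COX and a digit, ATP5, or SDHA to SDHD, without pseudogenes. The rule gave 98 of the 14387 genes with a listed site, and every site of these genes was used whatever its score. Of the 98 genes, 43 belong to complex I, 8 to complex II, 8 to complex III, 22 to complex IV and 17 to complex V. By role, 21 are core subunits, 49 accessory subunits and 23 assembly factors, and 5 are read-through transcripts, antisense RNAs or a copy of a subunit gene. The lists use older symbols, and 20 members are named otherwise in current annotation, among them ATP5B (now ATP5F1B), ATP5A1 (ATP5F1A), ATP5C1 (ATP5F1C) and ATP5F1 (ATP5PB).

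The respiratory chain lies in the inner mitochondrial membrane, where complexes I to IV carry electrons from NADH and succinate to oxygen and complex V uses the resulting proton gradient to make ATP. A few subunits are encoded in mitochondrial DNA, whereas all others come from nuclear genes whose mRNAs are translated in the cytosol and whose proteins are imported. Assembly factors insert cofactors or join subunits and are absent from most finished complexes. PDCD4 is an RNA-binding tumour suppressor protein known for binding the helicase of translation initiation, and the comparison asked where it contacted these mRNAs.

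In the study, wild-type MCF10A cells (an established line of breast epithelium that is not transformed) were irradiated with UVC, and RNA crosslinked to protein was recovered by iCLIP with PDCD4 antibody (2 replicates) or control IgG (2 replicates). The ends of the cDNAs mark the crosslinked nucleotide, and a site's score is the number of cDNAs counted there. Each immunoprecipitation was deposited as 1 pooled list of sites that passed a false discovery rate filter, so no value per replicate was used here, the lists were compared without a test, and intervals here cover only the error of counting. In all, 158922 sites (409308 cDNAs) were listed for PDCD4 and 111361 (276139 cDNAs) for IgG. All 11 markers of basal breast epithelium were listed for PDCD4 and 10 for IgG (2223 and 1180 cDNAs), whereas of 7 markers of other cell types only the oestrogen receptor gene ESR1 was listed, with 2 cDNAs for PDCD4. The RNA bound was not compared with the RNA present, so that more of an mRNA and more contact with each copy cannot be told apart.

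The mean score of member sites was near that of each whole list, at 2.58 beside 2.58 for PDCD4 and 2.44 beside 2.48 for IgG. High scores were few. No member site scored above 7, and 2 sites in each list scored above 5. This was 0.424% of 472 PDCD4 sites and 0.548% of 365 IgG sites, against 1.48% and 0.69% of each whole list. These shares rest on 2 sites each. To show where the strongest exonic contacts lay, the 30 nt of the reference genome (GRCh38) around each exonic member site with a score of 5 or more are given, except for 2 PDCD4 sites on 1 chromosome from which no sequence is shown. Each is written 5′ to 3′ on the strand of the gene, and the capital marks the listed site, with 15 nt before it and 14 after it. ATP5B, the catalytic beta subunit of ATP synthase, held 5 of these 11 PDCD4 sites:
ATP5B coding sequence, score 7, chr12:56642556-56642585, minus strand: tttaggtgtctgcatTattgggccgaatcc
ATP5B coding sequence, score 5, chr12:56644833-56644862, minus strand: ctgttggtcctgagaCtttgggcagaatca
ATP5B coding sequence, score 5, chr12:56640035-56640064, minus strand: agactccacctctcgTatcatggatcccaa
ATP5B coding sequence, score 5, chr12:56639159-56639188, minus strand: ggttgctgaggtcttCacaggtcatatggg
ATP5B 5′ UTR, score 5, chr12:56645955-56645984, minus strand: agtctccacccggacTacgccatgttgggg
The other PDCD4 sites lay in the assembly factor NDUFAF2, the hinge protein UQCRH and the small subunit UQCRQ of complex III, the accessory subunit NDUFV3 of complex I, the flavoprotein SDHA of complex II and COX10, which makes the haem A precursor for complex IV:
NDUFAF2 coding sequence, score 6, chr5:60945286-60945315, plus strand: ttgtggagatcgctgTcaagggaagtgaag
UQCRH coding sequence, score 5, chr1:46310188-46310217, plus strand: cagttggagaaatgtGtaaaggcccgggag
UQCRQ coding sequence, score 5, chr5:132867492-132867521, plus strand: tgtagtgttttatctTatctacacatgggg
NDUFV3 coding sequence, score 5, chr21:42903518-42903547, plus strand: acgtttcagaggtcaCtcctcgagtggtga
SDHA coding sequence, score 5, chr5:225430-225459, plus strand: tgctgctctggggaaCatggaggaggacaa
COX10 3′ UTR, score 5, chr17:14208143-14208172, plus strand: cccttgggtgaaaaaTacatgtccatcctg
In the IgG list, 2 such sites were found, in the alpha subunit ATP5A1 of ATP synthase and in the copper chaperone COX11 of complex IV:
ATP5A1 coding sequence, score 7, chr18:46091756-46091785, minus strand: aagaaactgggcgtgTcttaagtattggtg
COX11 coding sequence, score 6, chr17:54962781-54962810, minus strand: gttgatcttatcactCtttcttacactttt
The listed base was T in 6 of the 11 PDCD4 windows, and G and C made up 36.7% to 63.3% of their letters. Over all exonic member sites, U stood at the listed position in 113 of 287 PDCD4 sites (39.4%, 95% Wilson interval 33.9% to 45.1%) and in 55 of 116 IgG sites (47.4%, 38.6% to 56.4%). Among all other genes these shares were 43.3% and 47.7%, so that the share of U in respiratory chain mRNAs differed from the rest by no more than the counting error. The nucleotide after the site was G in 13 of the 287 exonic PDCD4 sites (4.53%, 2.67% to 7.59%), beside 3.89% of those of all other genes.

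Summed over whole genes and all roles, the shares of the respiratory chain genes in the PDCD4 and IgG lists differed by no more than the counting error. Their summed score was 1217 cDNAs for PDCD4, or 29.7 per 10000 cDNAs of the list, and 889 for IgG, or 32.2 per 10000. The log2 ratio of the PDCD4 share to the IgG share was -0.12 (95% counting interval -0.24 to 0.01), with 1 cDNA added to each sum as in all ratios here. The direction depended on the assembly factors: core and accessory subunits alone gave 0.23 (0.08 to 0.38). Without ATP5B the ratio of all members was -0.20 (-0.33 to -0.08), and without rows of several gene labels it was -0.15 (-0.28 to -0.02). Both of these intervals lie below 0. Sites were listed in 89 members for PDCD4, beside 89.7% of all 14387 genes, in 79 for IgG, beside 82.2%, and in 70 for both, beside 72%, so that the members were listed about as often as other genes. Only 1 member position was in both lists, and the methods describe that crosslink sites of the IgG replicates were subtracted from those of PDCD4.

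Where the sites lay within the genes differed between the lists, as the plot of ratios by transcript region shows. Coding sequence held 160 of the 472 PDCD4 sites (33.9%, Wilson interval 29.8% to 38.3%) and 36 of the 365 IgG sites (9.86%, 7.21% to 13.4%). Introns held 184 PDCD4 sites (39.0%, 34.7% to 43.5%) and 246 IgG sites (67.4%, 62.4% to 72.0%). PDCD4 sites on these transcripts were thus spread over coding sequence and introns, and IgG sites lay mostly in introns.

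In coding sequence, members held 442 cDNAs for PDCD4 and 96 for IgG, a log2 ratio of 1.62 (1.31 to 1.94). All other genes had a coding log2 ratio of 1.10 (1.08 to 1.12), and the difference was 0.52 (0.20 to 0.84), an interval of counting error that lies above 0. In introns, members held 454 cDNAs for PDCD4 and 589 for IgG, a log2 ratio of -0.94 (-1.12 to -0.77). All other genes had -0.44 (-0.45 to -0.43) there, which left the members lower by -0.50 (-0.68 to -0.33). Summed over all members, the excess in coding sequence and the deficit in introns were thus both larger than for the other genes together. They nearly cancelled in the sum over whole genes. The larger intronic deficit was not shared by every role. Core subunits had -0.20 (-0.55 to 0.14) in introns, an interval that includes the -0.44 of all other genes.

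The untranslated regions followed in part. In 5′ UTRs the members held 66 and 18 cDNAs, a log2 ratio of 1.25 (0.52 to 1.99), and the interval included the 0.70 of all other genes. In 3′ UTRs they held 163 and 95 cDNAs, a log2 ratio of 0.20 (-0.16 to 0.57) beside 0.22 for all other genes. Exons of non-coding transcripts of these genes held 90 and 84 cDNAs, a log2 ratio of -0.47 (-0.90 to -0.04) beside 0.33 for all other genes, and 34 of the 36 PDCD4 sites and 30 of the 34 IgG sites there also lay in an intron of another transcript.

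**Figure D1:**
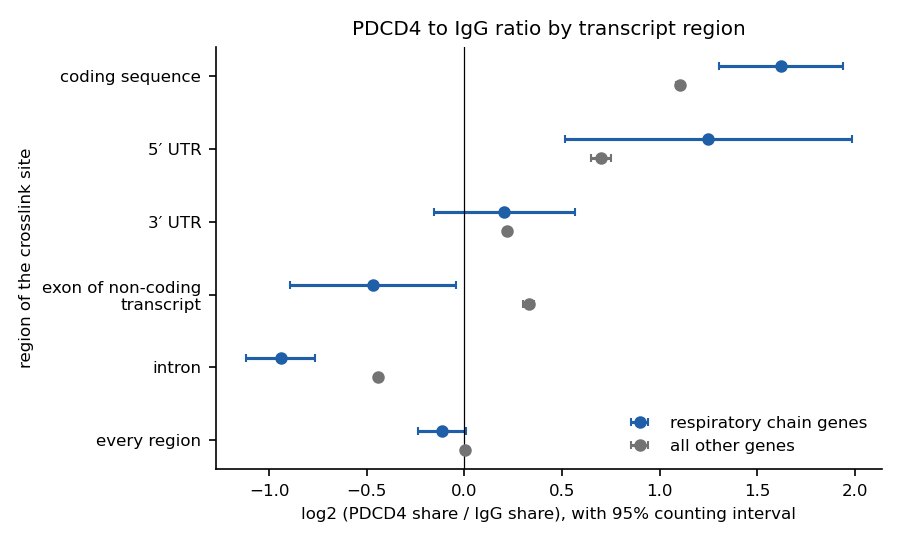
log2 ratio of the PDCD4 share to the IgG share of cDNAs (x axis) by transcript region (y axis), for the 98 respiratory chain genes (blue) and all other genes (grey); bars are 95% counting intervals, and some grey bars are narrower than their points. The members lie above the other genes in coding sequence (1.62 against 1.10), below them in introns (-0.94 against -0.44) and beside them in 3′ UTRs (0.20 against 0.22).

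A coding site was listed for 61 members. In 35 of the 61 it was listed for PDCD4 and none for IgG, beside 42% of the 8077 genes with a coding site. In 8 of the 61 the reverse was found, beside 12.6%. The PDCD4 list holds more cDNAs, and these counts were not tested. In introns, 2 of the 17 members with at least 20 intronic cDNAs had a log2 ratio above 0, beside 29.0% of such genes. Without NDUFAF2, COX10, NDUFS4 and SDHD, chosen after seeing the data, the members' intronic log2 ratio was -0.73 (-0.92 to -0.53), still below that of all other genes. This set is not the members with the largest intronic IgG sums. NDUFA10 and COX19, with 39 and 37 intronic IgG cDNAs, were kept, and COX10 had 22. Leaving out all of the largest contributors was not tested.

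Counts per member were small: 37 of the 98 members reached 20 cDNAs over both lists, 9 reached 50 and 35 held fewer than 10. Over whole genes, 7 of the 37 members were at least 2-fold higher for PDCD4, beside 16.4% of all genes at this minimum. A further 10 of the 37 were at least 2-fold lower, beside 16% of all genes. The median log2 ratio was -0.35 for the members and -0.09 for all 7297 genes. In exons, 8 of 15 members with 20 exonic cDNAs were at least 2-fold higher, beside 32.3% of genes, and 2 of 15 at least 2-fold lower, beside 7.35%. In introns, 1 of 17 was higher, beside 9.05%, and 9 of 17 lower, beside 30.3%. The medians were 1.68 for exons and -1.28 for introns, beside 0.50 and -0.57 for all genes. No test was run on these counts, which rest on few members.

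**Figure D2:**
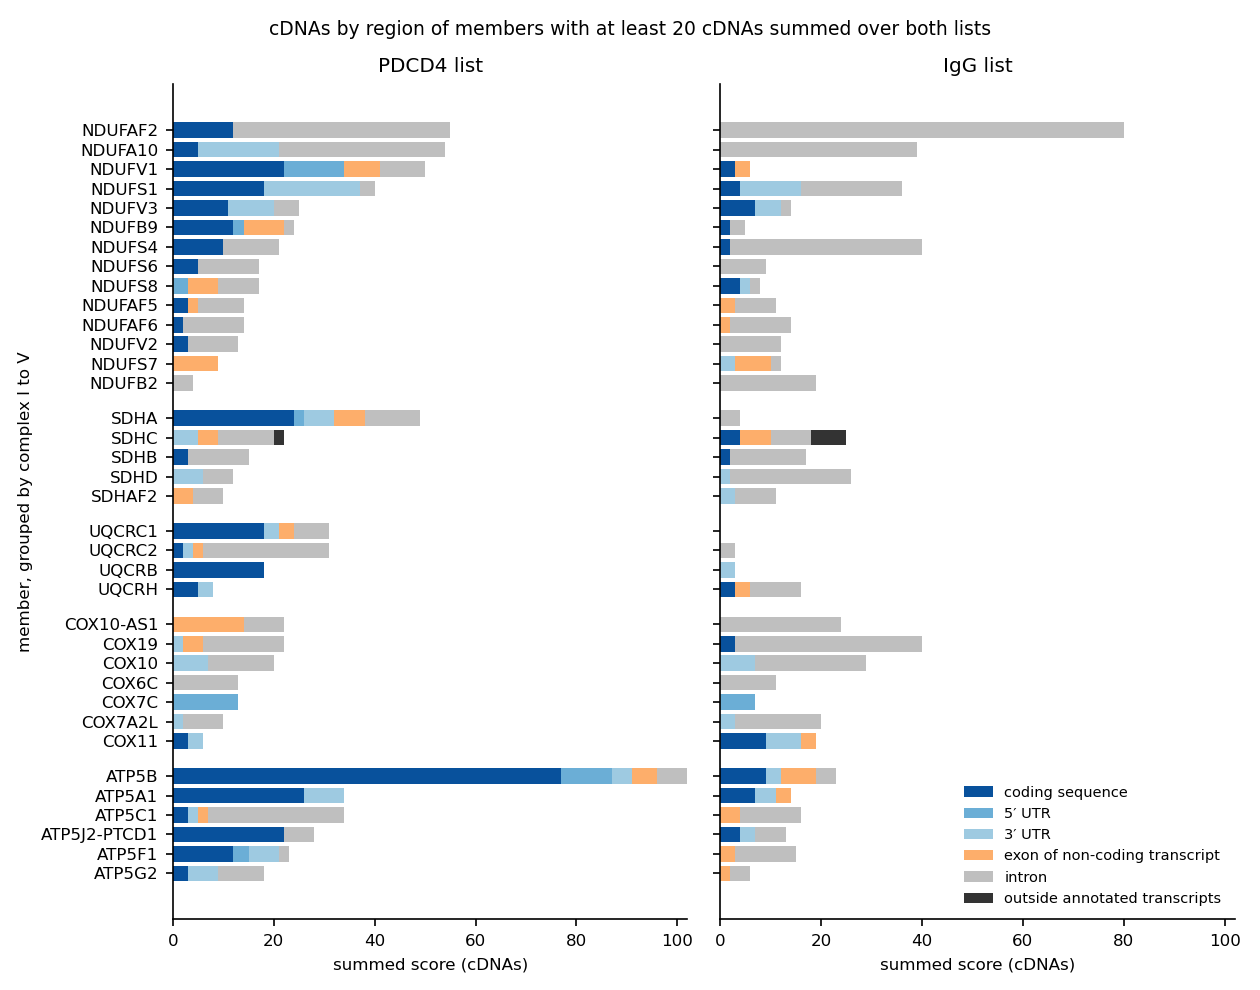
Summed score in cDNAs (x axis) of 36 of the 37 members with at least 20 cDNAs over both lists (y axis, grouped by complex I to V), for the PDCD4 list (left) and the IgG list (right), with colours for the region of the sites. Blue, the coding sequence and UTRs, makes up most of the PDCD4 bars of ATP5B, ATP5A1, UQCRB and NDUFS1, and grey, the introns, most of the IgG bars of NDUFAF2, NDUFA10, NDUFS4 and COX19; UQCRC1 has no IgG bar.

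Among the core subunits of complex I, which hold the flavin and the iron-sulphur clusters, NDUFV1 and NDUFS1 had the largest sums. NDUFV1, the subunit that binds NADH and flavin (chr11:67605653-67612554), had 50 cDNAs on 21 sites for PDCD4 and 6 cDNAs on 2 sites for IgG, a log2 ratio of 2.30 (1.16 to 3.44). Its PDCD4 cDNAs lay in coding sequence (22), the 5′ UTR (12), introns (9) and exons of non-coding transcripts (7). NDUFS1, the largest iron-sulphur subunit (chr2:206114817-206159509), held 40 and 36 cDNAs, which gave -0.42 (-1.06 to 0.22) over the whole gene. Split by region, it held 3 and 20 cDNAs in introns, 18 and 4 in coding sequence, and 19 and 12 in the 3′ UTR, so that its introns leaned to IgG, while its exonic log2 ratio of 0.59 (-0.23 to 1.42) was within counting error.

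The accessory subunits and assembly factors of complex I were led by genes with long introns. NDUFAF2, an assembly factor (chr5:60945177-61154531), had the largest sum of all members, with 55 cDNAs for PDCD4 and 80 for IgG and a log2 ratio of -1.10 (-1.59 to -0.61). All 80 IgG cDNAs were intronic, whereas the PDCD4 cDNAs were 43 in introns and 12 in coding sequence. NDUFS4, an accessory subunit (chr5:53560633-53683338), held 21 and 40 cDNAs, of which 11 and 38 were intronic and 10 and 2 coding. NDUFA10, another accessory subunit (chr2:239892450-240025743), held 54 and 39 cDNAs, with 21 PDCD4 cDNAs in its exons (mostly the 3′ UTR, with 16), where IgG had none listed. Over the whole gene, NDUFA10 had a log2 ratio of -0.11 (-0.70 to 0.48), within counting error. The exons of these 3 genes held 12, 10 and 21 PDCD4 cDNAs beside none, 2 and none for IgG. NDUFV3, which sits beside NDUFV1, held 25 and 14 cDNAs, of which 11 and 7 were coding, and its log2 ratio of 0.23 (-0.69 to 1.14) was within counting error.

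Complex II, succinate dehydrogenase, joins the respiratory chain to the tricarboxylic acid cycle. SDHA, its flavoprotein (chr5:218303-257082), had 49 cDNAs on 20 sites for PDCD4 and 4 cDNAs on 2 sites for IgG, and its log2 ratio of 2.75 (1.43 to 4.08) was the highest among the 9 members with at least 50 cDNAs. Exons held 38 of the PDCD4 cDNAs and no listed IgG site. A copy elsewhere in the genome exists for 43.8% of the 30-nt stretches of its mRNA, and its pseudogenes SDHAP1 and SDHAP2 were themselves listed, with 20 and 19 cDNAs for PDCD4 and 13 and 10 for IgG. The iron-sulphur subunit SDHB held 15 and 17 cDNAs, with a log2 ratio of -0.74 (-1.71 to 0.23). The membrane anchor SDHC held 22 and 25, with -0.74 (-1.55 to 0.06). The other anchor, SDHD, held 12 and 26, with -1.62 (-2.58 to -0.67). Its symbol stood beside 2 Ensembl identifiers, and the identifier of the SDHD gene itself marked only 4 of the PDCD4 cDNAs (1 site) and 13 of the IgG cDNAs (4 sites). SDHA thus stood apart from the other 3 subunits of its complex, none of which leaned to PDCD4.

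Complex III, the cytochrome bc complex, had the highest PDCD4 to IgG ratio of the 5 complexes, counting only the genes that fit the symbol rule. All 8 members were listed for PDCD4, beside 89.7% of all genes, and 3 of the 8 for IgG, beside 82.2%, which are counts of few genes. They held 124 and 22 cDNAs, a log2 ratio of 1.87 (1.23 to 2.52). UQCRC1, a core protein of the matrix arm (chr3:48599002-48610976), held 12 PDCD4 sites with 31 cDNAs, 18 of them in coding sequence, and no IgG site was listed. UQCRC2, its partner (chr16:21953288-21983660), held 31 PDCD4 cDNAs and 3 IgG cDNAs, a log2 ratio of 2.43 (0.93 to 3.93), but 25 of its PDCD4 cDNAs were intronic. The small subunits UQCRB and UQCRQ, with 18 and 12 PDCD4 cDNAs, had all of them in coding sequence, and neither had an IgG site there. UQCRB held 3 IgG cDNAs in its 3′ UTR. The hinge protein UQCRH was the exception, with 8 PDCD4 cDNAs and 16 IgG cDNAs, 10 of the latter in introns. The Rieske protein UQCRFS1 and the small subunits UQCR10 and UQCR11 were listed for PDCD4 alone, with 6, 9 and 9 cDNAs, too few to set against IgG. CYC1, a subunit of this complex whose symbol falls outside the rule, held 15 and 13 cDNAs, all exonic. Its log2 ratio was -0.38 (-1.41 to 0.66), so the lean to PDCD4 was not shown for every subunit of the complex.

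Complex IV, cytochrome c oxidase, had a log2 ratio of -0.61 (-0.90 to -0.33) over 22 members, with 193 cDNAs for PDCD4 and 199 for IgG. In coding sequence and UTRs it held 87 and 59 cDNAs, a log2 ratio of -0.02 (-0.49 to 0.46). Its members with most cDNAs were assembly factors and an antisense gene. COX19, which takes part in copper delivery (chr7:898778-975549), held 22 cDNAs for PDCD4 and 40 for IgG, 16 and 37 of them intronic, with a log2 ratio of -1.40 (-2.14 to -0.67). COX10 (chr17:14069490-14231736) held 20 and 29 cDNAs, 13 and 22 of them intronic and 7 and 7 in the 3′ UTR. COX10-AS1, the antisense gene beside it, held 22 and 24 cDNAs, with 14 PDCD4 cDNAs in exons and all 24 IgG cDNAs in introns. COX11 (chr17:54951902-54968703) held 6 and 19 cDNAs with no intronic site in either list, so that it was lower for PDCD4 in its exons, with a log2 ratio of -2.08 (-3.32 to -0.84). The structural subunits of complex IV were listed with few cDNAs each, COX6C with 13 and 11, all intronic, and COX7C with 13 and 7, all in its 5′ UTR. Summed, its 11 nuclear-encoded subunits held 62 and 14 cDNAs in coding sequence and UTRs, a log2 ratio of 1.503 (0.69 to 2.31). Its 10 assembly factors held 25 and 45 there, a log2 ratio of -1.39 (-2.08 to -0.70).

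Complex V, ATP synthase, had a log2 ratio of 0.45 (0.16 to 0.75) over 17 members, with 277 and 136 cDNAs. ATP5B (chr12:56638175-56645984) held the most PDCD4 cDNAs of all members, with 35 sites and 102 cDNAs beside 9 IgG sites and 23 cDNAs, and a log2 ratio of 1.53 (0.89 to 2.17). Coding sequence held 77 of its PDCD4 cDNAs and 9 of its IgG cDNAs, and the 5′ UTR 10 and none. Without ATP5B the coding log2 ratio of all members, not of complex V, was 1.49 (1.15 to 1.82), so that this ratio did not rest on ATP5B. Over whole genes, ATP5B held 102 of the 277 PDCD4 cDNAs and 23 of the 136 IgG cDNAs of complex V. The whole-gene ratio of the complex without ATP5B was not computed. ATP5A1, the alpha subunit (chr18:46080248-46104334), held 34 and 14 cDNAs with no intronic site, 26 and 7 of them coding, and a log2 ratio of 0.65 (-0.22 to 1.53). ATP5C1, the gamma subunit of the rotor (chr10:7788147-7807815), also held 34 PDCD4 cDNAs and 16 IgG cDNAs, but 27 and 12 of these were intronic. ATP5F1, the peripheral stalk subunit b (chr1:111448864-111462773), held 23 and 15 cDNAs, of which 21 and 3 were exonic and 2 and 12 intronic. The read-through transcript ATP5J2-PTCD1 held 28 and 13 cDNAs, a log2 ratio of 0.48 (-0.44 to 1.40), on sites that can belong to the genes it joins. Other members of complex V, with few cDNAs each, leaned to IgG. ATP5L held 4 and 12 cDNAs, with -1.95 (-3.43 to -0.46), and the assembly factor ATP5S 3 and 13, with -2.38 (-3.98 to -0.77). ATP5J held 0 and 12, with -4.27 (-7.20 to -1.33).

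Along the spliced mRNA of ATP5B, drawn with that of SDHA in the plot of listed sites along 2 mRNAs, the 31 PDCD4 sites reached from nucleotide 16 to nucleotide 1666 of 1759. They formed no single cluster: sites of score 5 or more lay in the 5′ UTR and at 4 places in the coding sequence. The 6 IgG sites on this mRNA held 12 cDNAs, none with a score above 3. SDHA showed a like spread at lower scores. Over all members, coding PDCD4 sites fell evenly when each coding sequence was divided into 3 equal parts, with 48, 49 and 54 of 151 sites from the start codon onwards. The 30 coding IgG sites were too few for such a profile, with 12, 3 and 15.

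**Figure D3:**
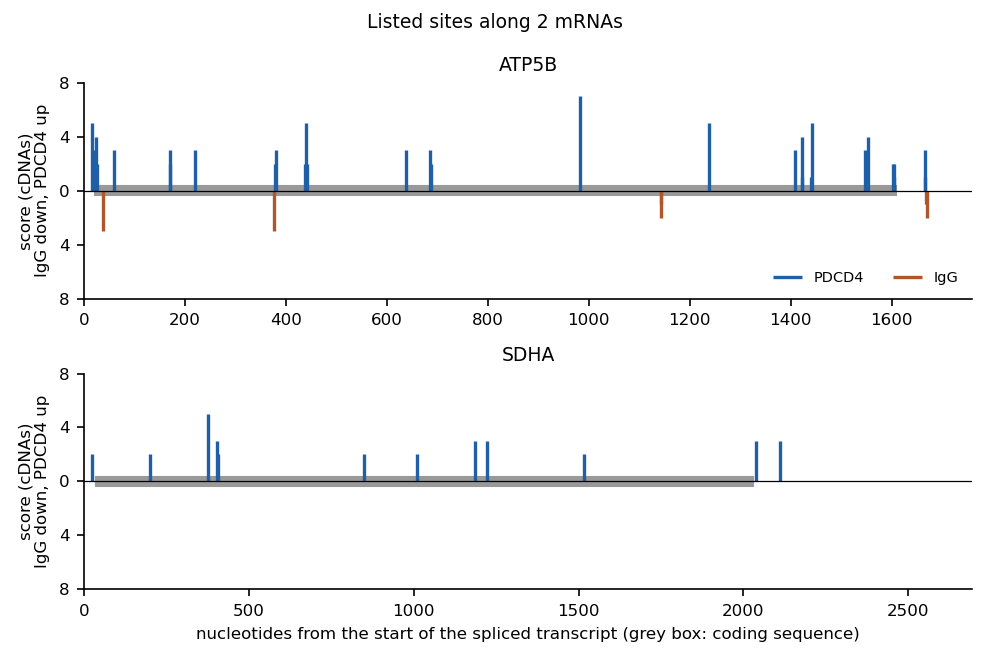
Score in cDNAs (y axis, PDCD4 upwards in blue and IgG downwards in brown) of each listed site along the spliced transcripts of ATP5B (top) and SDHA (bottom), by distance in nucleotides from the transcript start (x axis); the grey box is the coding sequence. PDCD4 sites are spread over the length of both coding sequences with a highest score of 7 in ATP5B, and no IgG site lies on the SDHA transcript.

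The last nucleotides of exons before a splice site held few sites in both lists. Of 233 exonic PDCD4 sites on 1 transcript per member, 74 (31.8%, 26.1% to 37.99%) lay in the first 50 nt of an exon after a splice site, where exon lengths alone would give 18.4%. In the last 50 nt before a splice site lay 4 sites (1.72%, 0.67% to 4.33%), where lengths would give 18.4%. All other protein-coding genes showed 18.8% in the first 50 nt, with 14.96% from lengths, and 1.86% in the last 50 nt, with 14.9% from lengths. The last 50 nt of exons were therefore nearly without sites in the whole PDCD4 list, and likewise in the IgG list, with 0 of 69 member sites (Wilson interval up to 5.27%) and 1.96% of the sites of other genes. For IgG, 13 of the 69 member sites (18.8%, 11.4% to 29.6%) lay in the first 50 nt, an interval that includes the 15.8% from lengths. Other genes had 13.3% of their IgG sites there, with 13.4% from lengths. The shares from lengths spread sites over the whole transcript, UTRs included. The 233 PDCD4 sites favoured coding sequence, with 64.8% there beside 52.2% from lengths, and nearly avoided the last 50 nt. Both features can raise the share in the first 50 nt above 18.4%. An excess at exon starts apart from them was not tested.

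Per length, the members with the most coding PDCD4 cDNAs were small subunits and ATP5B. UQCRB held 54.1 coding cDNAs per kb of coding sequence, UQCRQ 48.8 and ATP5B 48.5, followed by the epsilon subunit ATP5E (39.2), the complex III subunit UQCR11 (35.7) and the ATP synthase subunit ATP5I (33.8). ATP5B also held 5.67 per kb for IgG, and none of the other 5 had a coding IgG site. NDUFV1 held 15.8 per kb for PDCD4, ATP5A1 15.7, UQCRC1 12.5 and SDHA 12.0, and these 4 values rest on 18 to 26 cDNAs each, too few to order them. The values of the small subunits rest on 6 to 18 cDNAs each. COX11 held 3.62 per kb for PDCD4 and 10.9 for IgG.

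Grouped by complex, the log2 ratio in coding sequence and UTRs was 1.02 (0.65 to 1.38) for complex I, 1.55 (0.64 to 2.45) for complex II, 2.93 (1.81 to 4.04) for complex III and 1.42 (0.99 to 1.85) for complex V. All other genes together had 0.62 (0.61 to 0.63) in these regions. Complex IV was lowest with its assembly factors, but its subunits alone, at 1.503, lay among the other complexes. The value of complex II rested on SDHA, without which it was 0.17 (-0.86 to 1.20) on 19 and 11 cDNAs. Without ATP5B, complex V had 0.98 (0.48 to 1.49), and without UQCRC1, complex III had 2.48 (1.35 to 3.61). The core and accessory subunits of complex I alone had 0.99 (0.60 to 1.38). The intervals of these subunits, of complex II without SDHA and of complex V without ATP5B included the 0.62 of all other genes. In introns, where all other genes had -0.44, the log2 ratio of complexes I, II, IV and V was below 0, from -1.22 to -0.64. The intervals of complexes I and IV lay below -0.44, and those of complexes II and V included it. The intronic log2 ratio was above 0 in complex III, at 1.02 (0.14 to 1.89), on 41 and 13 cDNAs. That value rested on UQCRC2, without which it was 0.06 (-1.03 to 1.15).

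By role, core and accessory subunits were alike in coding sequence and UTRs, with log2 ratios of 1.52 (1.15 to 1.88) and 1.39 (1.01 to 1.77). Assembly factors, with 64 and 56 cDNAs there, had -0.38 (-0.89 to 0.13), an interval below those of both kinds of subunit. In introns the core subunits had -0.20 (-0.55 to 0.14), the accessory subunits -1.07 (-1.37 to -0.77) and the assembly factors -1.21 (-1.51 to -0.90). Of these intervals, that of the core subunits included the -0.44 of all other genes, and the others lay below it. The assembly factors were not alike: in coding sequence and UTRs the 8 of complex I held 34 and 8 cDNAs, a log2 ratio of 1.39 (0.33 to 2.45), and the low value came from those of complex IV. A further 24 listed assembly factors whose symbols fall outside the rule had 0.81 (0.22 to 1.40) in coding sequence without UTRs. All other genes had 1.10 there, which lies within this interval. All other genes also leaned to PDCD4 in coding sequence and UTRs, at 0.62, and the intervals of core and accessory subunits lay above this value. Of the assembly factors, those of complex IV leaned to IgG.

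**Figure D4:**
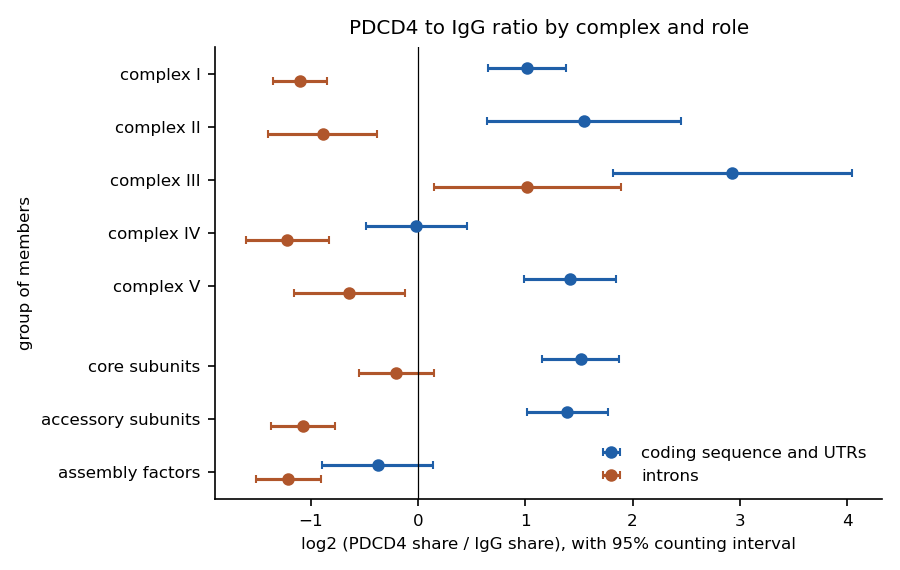
log2 ratio of the PDCD4 share to the IgG share (x axis) for members grouped by complex and by role (y axis), in coding sequence and UTRs (blue) and in introns (brown); bars are 95% counting intervals. Complex III is highest in both, at 2.93 and 1.02, the latter resting on UQCRC2, and complex IV (with its assembly factors) and the assembly factors of all complexes have intervals in coding sequence and UTRs that include 0. All other genes, not drawn, had 0.62 in coding sequence and UTRs and -0.44 in introns.

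Other mitochondrial gene lists give the scale of these values. The mitochondrially encoded subunits of the same complexes, of which 12 of 13 were listed, held 671 cDNAs for PDCD4 and 664 for IgG, a log2 ratio of -0.55 (-0.71 to -0.40), on RNA without introns. Among the 5 with at least 100 cDNAs, ratios ran from -1.75 for MT-ND5 of complex I to 1.33 for MT-CYB of complex III. In coding sequence the nuclear members exceeded them by 2.17 (1.81 to 2.52). The 8 listed cytochrome c and complex III genes outside the symbol rule had -0.72 (-1.06 to -0.38) over whole genes. Their coding log2 ratio was 0.10 (-0.78 to 0.98), on 26 and 16 cDNAs, below the members' by 1.52 (0.59 to 2.45). The 74 listed mitochondrial ribosomal protein genes had a coding log2 ratio of 1.11, below the members' by 0.51 (0.02 to 1.00), and the 13 genes of the tricarboxylic acid cycle had 0.66, below by 0.96 (0.38 to 1.54). Protein import (1.29), carriers and porins (1.15) and regulators of mitochondrial biogenesis (1.14) had coding log2 ratios whose distances from the members, 0.33 (-0.29 to 0.96), 0.47 (-0.32 to 1.26) and 0.48 (-0.23 to 1.19), included 0. Cytosolic ribosomal protein genes had a coding log2 ratio of 1.46, and the difference of 0.17 (-0.19 to 0.52) included 0. Respiratory chain mRNAs thus leaned to PDCD4 in coding sequence about as far as cytosolic ribosomal protein mRNAs, but the latter were also higher over whole genes, at 0.98 (0.87 to 1.09), with introns at 0.04 (-0.21 to 0.30).

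Some limits bear on single members. A row can carry several gene labels, and 38 PDCD4 and 28 IgG member rows were shared with a gene outside the respiratory chain. Copies elsewhere in the genome exist for a median of 7.12% of the 30-nt stretches of a member's mRNA, but for over 50% in 7 members, among them SDHC, SDHD, NDUFAF2 and UQCRH, where a read can have been lost or placed elsewhere; their part in the counts was not tested. Of the 111 protein-coding genes whose current symbols fit the rule, 14 had no listed site, among them NDUFA1, NDUFA2, NDUFB3 and NDUFB4 of complex I, which says only that no site passed the filter.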

How the data were processed

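iCLIP was performed in MCF10A cells with PDCD4 antibody or IgG, in 2 replicates each. The authors mapped the reads to the Ensembl genome (release 88, GRCh38), called crosslink sites with iCount at a false discovery rate of 5%, and deposited 1 merged list per immunoprecipitation; the aligner and the version of iCount are not given in the sources used here. The score in the deposited lists is a raw count of cDNAs per site, not normalized. The methods keep peaks with a score greater than 5 and subtract IgG sites from the PDCD4 replicates before peak calling; the deposited lists hold scores from 1 upwards, and every score was used here.

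Members were chosen by symbol from the gene labels. The members, the comparison lists and the genes named were chosen with earlier results of these data known. Roles and complexes were assigned from general knowledge. Named with values were the 20 members with the most cDNAs over both lists, the 5 highest and 5 lowest ratios among members with at least 50 cDNAs, members with a site above score 5, and members absent from 1 list with at least 20 cDNAs in the other; further members were named after their values were seen. Another member is counted in all sums but not reported here by name. In the other lists, genes with at least 100 cDNAs could be named, and CYC1 was named later as a subunit of complex III.

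Sites were placed in GENCODE release 44 by strand; where transcripts disagreed, coding sequence came before 3′ UTR, then 5′ UTR, exon of a non-coding transcript and intron. Sums of scores were divided by the list total. Ratios are log2 with 1 cDNA added to each sum and 95% intervals from the counting error of both sums, and shares have Wilson intervals. A row counts once in a sum over members and once for each gene it names. cDNA counts without replicates give no spread between samples, so no p-value was computed. Positions used the canonical transcript, and copies of 30-nt stretches were searched on both strands of the reference genome. The ratio and its interval were run on simulated counts with known folds and counting error alone. Spread between replicates, the false discovery rate filter and the subtraction of IgG sites were not simulated. Software was matplotlib 3.10.9, scipy 1.17.1, pandas 2.3.3 and numpy 2.4.6 under Python 3.11.15. Alternatives were score thresholds, the pseudocount, the minimum, the total, numbers of sites, region order, 1 transcript per gene, and leaving out shared rows, shared positions, assembly factors or single members (the last also within complexes, chosen after seeing the data).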

Additional observations from a re-analysis of the deposited data

How the results depend on the processing

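No paired analysis was possible because each deposited list pools its replicates, and for the same reason leaving out each replicate was not run. Scores greater than 5, the threshold of the methods, left 2 members in each list, all in coding sequence (100% of member sites in both lists). The summed and exonic log2 ratios were then -1.96 (the latter reversed), and the intronic ratio was -1.96 with no intronic site in either list. At this threshold no member reached the minimum, so no median or 2-fold count of members exists. With totals taken over exons of protein-coding genes, which make up more of the PDCD4 list, the summed ratio was -0.73, the median -0.96, the exonic ratio 0.19 and the intronic ratio -1.56, with 18 members at least 2-fold lower. The interval of that exonic ratio, -0.01 to 0.38, included 0. With core and accessory subunits only, the summed ratio and the median were 0.23, both above 0, the exonic ratio 1.03 and the intronic -0.70, with 5 members lower. Without NDUFAF2, COX10, NDUFS4 and SDHD, chosen after seeing the data, the summed ratio was 0.067 and the intronic -0.73. Counting coding sequence and UTRs alone, also added later, gave an exonic ratio of 1.11. By complex, settings added later moved the ratio in coding sequence and UTRs to 0.17 for complex II without SDHA, to 1.503 for complex IV without assembly factors and to 0.98 for complex V without ATP5B, and the intronic ratio of complex III without UQCRC2 to 0.060. Introns before exons gave coding shares of 21.8% for PDCD4 and 6.58% for IgG. Counts of members at least 2-fold higher and lower were 3 and 4 by number of sites, 3 and 3 at a minimum of 50, and 12 and 18 at a minimum of 10. For the results over all members, in all other settings, among them scores greater than 1, a pseudocount of 5, and lists without ATP5B, rows of several labels or shared positions, values moved less than their counting interval or within 1.5 times of a count. Even so, the interval of the summed ratio lay below 0 without ATP5B (-0.33 to -0.08) and without rows of several labels (-0.28 to -0.02). Depth limits most single members, of which 37 of 98 reached 20 cDNAs.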
